A study of Mus musculus with 6 samples.

Results

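Eicosanoids are lipid mediators made from arachidonic acid, and the genes described here encode the enzymes of their synthesis. Of 9 listed genes, Pla2g4a, Ptgs1, Ptgs2, Ptges, Tbxas1, Alox5, Alox5ap, Lta4h and Ltc4s, 8 had a probe set whose platform annotation gave that symbol alone, and Ptgs1 is not analysed here. The 8 genes stood among 18194 genes represented on the array, each gene was read by the brightest of its probe sets on average over the 6 arrays, and all 8 were among the 13587 genes that reached the median of all probe sets on at least 1 array. The genes were listed for their function, with earlier results of these data known.

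RNA levels were compared in thioglycollate-elicited peritoneal macrophages from LysM-Cre+;Akirin2fl/fl mice, called Akirin2 KO here, and from wild-type mice, all of a C57BL/6 x 129Sv background. Cells of each genotype were unstimulated (0 h) or had received 100 ng/ml of lipopolysaccharide (LPS, a bacterial cell wall component) for 2 or 4 h. There was 1 array for each of these 6 conditions and no replicate. The labels give neither the age of the mice nor whether cells of several mice were pooled, nor whether wild-type mice carried the Cre transgene. LysM-Cre acts in myeloid cells, so other cells in the peritoneal fluid would keep Akirin2. Akirin2 read 5.18, 5.54 and 4.91 in Akirin2 KO at 0, 2 and 4 h, against 7.43, 7.47 and 7.33 in wild-type (log2 values). Of 12 listed macrophage markers, some were bright on all arrays, among them Csf1r, Lyz2 and Cd68. Csf1r read 12.48 to 12.69 in Akirin2 KO and 12.60 to 12.61 in wild-type. Lyz2 read 12.01 to 12.05 and 12.06 to 12.20, and Cd68 10.71 to 10.89 and 10.60 to 10.92. Others were much dimmer, among them C1qa, Fcgr1 and Mertk, which lay below Csf1r, Lyz2 and Cd68 on every array. Itgam stayed near the array median (3.06 to 3.38 in Akirin2 KO and 3.08 to 3.47 in wild-type).

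Cytosolic phospholipase A2, the product of Pla2g4a, releases arachidonic acid from membranes. The cyclooxygenases encoded by Ptgs1 and Ptgs2 turn it into prostaglandin H, which the synthase encoded by Ptges converts to prostaglandin E and the synthase encoded by Tbxas1 to thromboxane A. In the other branch 5-lipoxygenase (Alox5), helped by its activating protein (Alox5ap), makes leukotriene A, which the hydrolase encoded by Lta4h turns into leukotriene B and the synthase encoded by Ltc4s into the cysteinyl leukotriene C. Macrophages are known to make all of these, and Ptgs2 is the inducible cyclooxygenase of inflammation.

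LPS divided the pathway. The genes for arachidonate release and prostaglandin E synthesis, Pla2g4a, Ptgs2 and Ptges, rose, while the genes for thromboxane synthase, 5-lipoxygenase and leukotriene C synthase, Tbxas1, Alox5 and Ltc4s, fell by 4 h. Differences over both genotypes were tested with limma, with LPS time and genotype as terms and p-values adjusted over all 13587 genes. The genotypes stand in for replicates in this test, so its p-values measure how alike the response was in both, not the spread between animals. At 2 h 2 of the 8 genes were called higher, where 3.96% of all genes were, and 0 lower, where 2.89% of all genes were. At 4 h 3 of the 8 were called higher and 3 lower, where 7.76% and 7.61% of all genes were. In bulk samples, fewer cells of a type and less RNA per cell cannot be told apart.

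**Figure D1:**
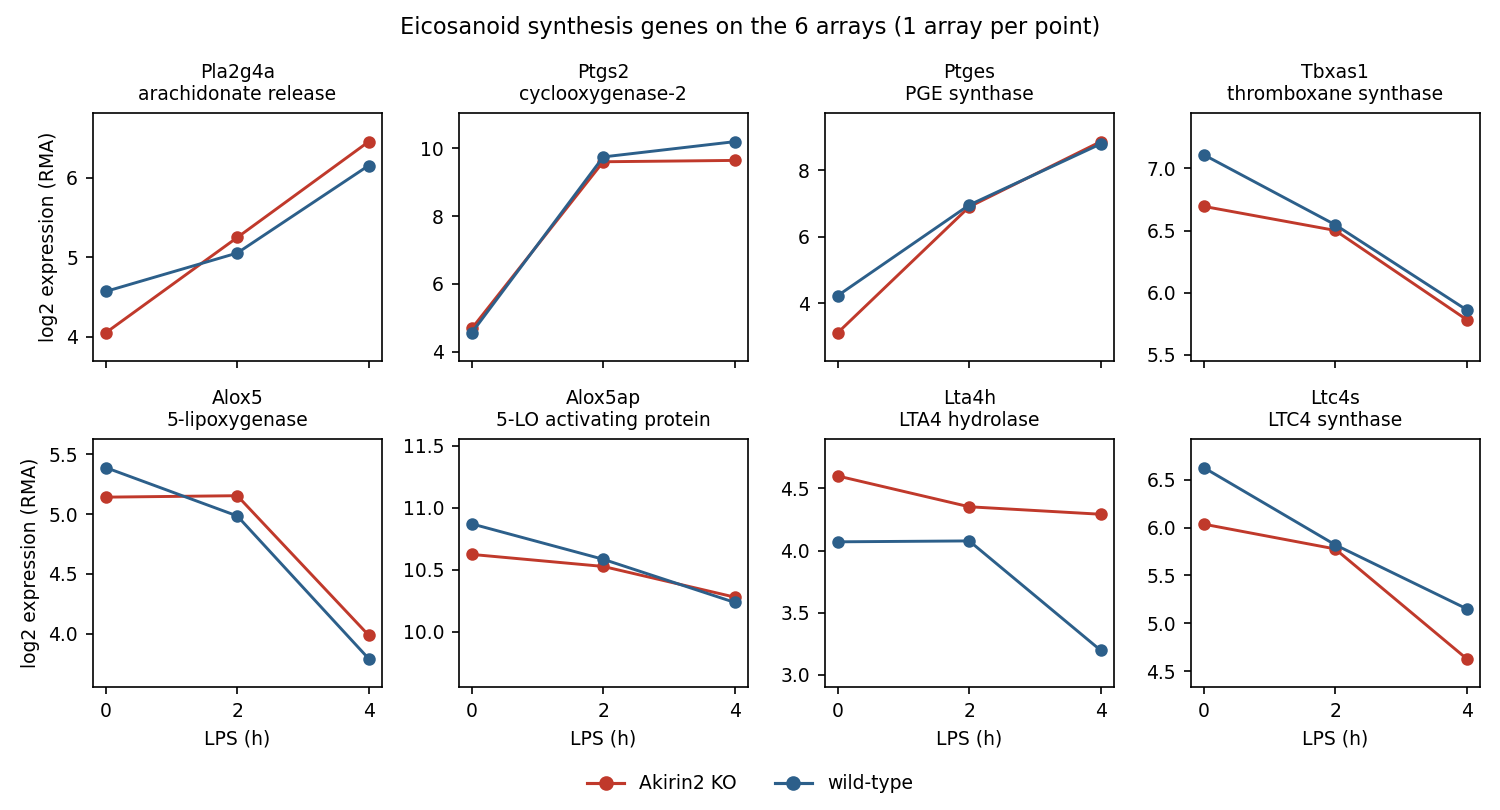
The log2 expression value (vertical axis, own range in each panel) of the 8 genes against hours of LPS, with 1 point per array, Akirin2 KO in red and wild-type in blue. Pla2g4a, Ptgs2 and Ptges climb in both genotypes, and Tbxas1, Alox5 and Ltc4s are lowest at 4 h in both.

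Ptgs2 had the largest response at 2 h. Its log2 value was 4.68, 9.60 and 9.64 at 0, 2 and 4 h in Akirin2 KO, and 4.56, 9.74 and 10.19 in wild-type. Most of the rise was thus present at 2 h in both genotypes. The limma estimate was 5.05 at 2 h (SE 0.19, adjusted p = 2.97e-06), which is a 33.2-fold difference, and 5.30 at 4 h (SE 0.19, adjusted p = 2.59e-06). The further difference between 4 h and 2 h was 0.24 (SE 0.19, adjusted p = 0.679). The other Ptgs2 probe set was dimmer and read 2.81, 3.87 and 4.16 in Akirin2 KO, against 2.55, 3.86 and 4.52 in wild-type. It rose too, with estimates of 1.19 after 2 h (adjusted p = 0.0059) and 1.66 after 4 h (adjusted p = 0.000506).

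Ptges rose later than Ptgs2 and was still climbing between 2 and 4 h. It read 3.11, 6.90 and 8.86 at 0, 2 and 4 h in Akirin2 KO, and 4.23, 6.95 and 8.79 in wild-type. All LPS arrays lay above both unstimulated arrays. The estimates were 3.26 at 2 h (SE 0.27, adjusted p = 0.000242) and 5.15 at 4 h (SE 0.27, adjusted p = 1.53e-05). The unstimulated Akirin2 KO array lay below the array median, so no exact fold is given against it, and the 4 h value in wild-type was 23.6-fold that at 0 h. The rise of 1.90 between 2 h and 4 h also passed (SE 0.27, adjusted p = 0.0106). Between 2 and 4 h, 2 of the 8 genes were called higher and 2 lower, where 1.56% and 1.11% of all genes were. The other Ptges probe sets rose less, with estimates of 1.64 and 1.16 at 2 h and 3.36 and 2.92 at 4 h.

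Pla2g4a rose the most slowly of the genes that went up. It read 4.05, 5.25 and 6.45 at 0, 2 and 4 h in Akirin2 KO, and 4.57, 5.05 and 6.15 in wild-type. Its values were ordered by time in both genotypes. The estimate was 1.99 at 4 h (SE 0.21, adjusted p = 0.000457), a 3.98-fold difference, and 1.15 between 2 and 4 h (SE 0.21, adjusted p = 0.0297). At 2 h it was 0.84 (SE 0.21, adjusted p = 0.0529), which did not pass, though it passed with arrays centred or quantile normalized again (adjusted p = 0.0373 and 0.0418).

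The promoters of Ptgs2 and Ptges, the genes with the largest rises, are shown as the 250 bases before the RefSeq start of transcription on GRCm38.p6, 5′ to 3′ on the gene's strand. Ptgs2 lies at chr1:150099781-150100030 on the plus strand and Ptges at chr2:30903298-30903547 on the minus strand. Capitals mark matches, on either strand, to any of 8 motifs: the C/EBP motif TTNNGNAA, the GC box GGGCGG, the PU.1 motif GAGGAA, the AP-1 motif TGANTCA, the TATA motif TATAAA, the cAMP response half-site TGACG, the E-box CACGTG and the NF-kB consensus.
Ptgs2: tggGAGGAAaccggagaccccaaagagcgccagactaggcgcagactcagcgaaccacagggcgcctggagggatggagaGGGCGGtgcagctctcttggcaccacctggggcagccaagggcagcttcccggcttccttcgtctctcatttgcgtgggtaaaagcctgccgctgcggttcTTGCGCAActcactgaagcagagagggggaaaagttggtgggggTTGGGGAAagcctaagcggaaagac
Ptges: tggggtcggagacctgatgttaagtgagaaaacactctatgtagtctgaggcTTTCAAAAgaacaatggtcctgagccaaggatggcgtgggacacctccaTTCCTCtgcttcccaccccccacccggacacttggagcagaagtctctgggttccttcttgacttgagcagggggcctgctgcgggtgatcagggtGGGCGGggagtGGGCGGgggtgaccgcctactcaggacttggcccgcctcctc

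The Ptgs2 window held 2 stretches matching the C/EBP motif. TTGCGCAA lay from -69 to -62 and reads the same on both strands, and TTGGGGAA lay from -25 to -18. It also held a GC box from -170 to -165 and a PU.1 match from -247 to -242. The Ptges window held GC boxes from -53 to -48 and from -42 to -37, a C/EBP match on the minus strand from -198 to -191, and a PU.1 match on the minus strand from -149 to -144. Of 32851 such windows in the RefSeq table, 36.8% held the C/EBP motif, 32.7% the GC box and 23.3% the PU.1 motif. The NF-kB consensus, held by 3.9% of windows, the half-site (17.8%) and the E-box (6.02%) had no match in either, nor did the AP-1 motif (6.75%) or the TATA motif (12.4%). A match is a description of letters, and a missing match says only that these letters are not in these 250 bases. The 50 bases after the start, and bases further upstream, were not searched.

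**Figure D2:**
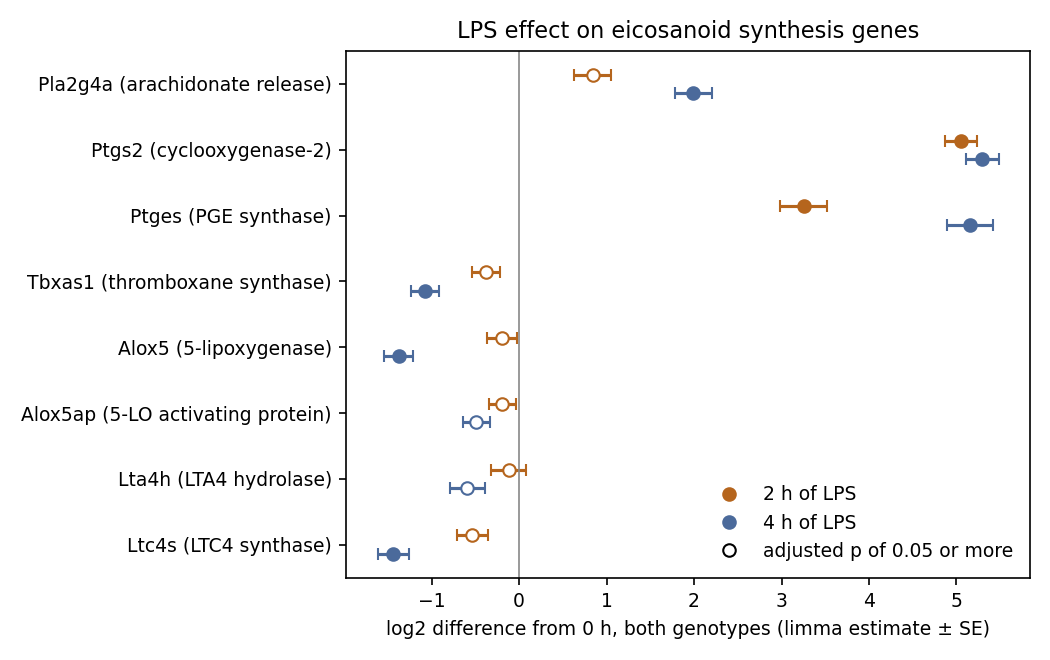
The limma estimate of the log2 difference from 0 h (horizontal axis) for the 8 genes at 2 h (orange) and 4 h (blue) over both genotypes, with bars of 1 SE. Open points did not pass the adjusted p of 0.05; the filled points at 4 h lie between 1.99 and 5.30 for the 3 genes that rose and between -1.44 and -1.08 for the 3 that fell.

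Among the genes that fell, Alox5 did so between 2 and 4 h. It read 5.14, 5.15 and 3.99 at 0, 2 and 4 h in Akirin2 KO, and 5.39, 4.99 and 3.79 in wild-type, so the 4 h array was the lowest in each genotype. The estimate was -0.20 at 2 h (SE 0.17, adjusted p = 0.586) and -1.38 at 4 h (SE 0.17, adjusted p = 0.000921). Between 2 and 4 h Alox5 fell by 1.18 (SE 0.17, adjusted p = 0.0108).

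Ltc4s fell to a similar extent. It read 6.04, 5.78 and 4.63 at 0, 2 and 4 h in Akirin2 KO, and 6.63, 5.82 and 5.15 in wild-type. The values declined with time in both genotypes. The estimate was -0.53 at 2 h (SE 0.18, adjusted p = 0.130) and -1.44 at 4 h (SE 0.18, adjusted p = 0.00097), which is 2.72-fold lower. The step between 2 and 4 h was -0.91 (adjusted p = 0.0377), and -0.94 with arrays centred (adjusted p = 0.0580).

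Tbxas1, the thromboxane synthase gene, fell at 4 h, while Ptges, whose product uses the same substrate, rose. It read 6.69, 6.50 and 5.78 at 0, 2 and 4 h in Akirin2 KO, and 7.11, 6.55 and 5.86 in wild-type. The estimate was -0.38 at 2 h (SE 0.16, adjusted p = 0.233) and -1.08 at 4 h (SE 0.16, adjusted p = 0.00254). The fall to 4 h was seen in both genotypes, whose 4 h arrays differed by -0.078.

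The remaining leukotriene genes, Alox5ap and Lta4h, did not pass at either time. Alox5ap read 10.62, 10.53 and 10.28 in Akirin2 KO and 10.87, 10.58 and 10.24 in wild-type, with an estimate of -0.49 at 4 h (SE 0.15, adjusted p = 0.0680). It was lowest at 4 h in both genotypes, and it passed with a higher expression floor (adjusted p = 0.0425), with probe sets averaged (0.0415), with quantile normalization again (0.0392) and with the trend and robust options of eBayes (7.29e-05). Lta4h read 4.60, 4.35 and 4.29 in Akirin2 KO and 4.07, 4.08 and 3.20 in wild-type. Its estimate at 4 h was -0.59 (SE 0.20, adjusted p = 0.0942).

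The upstream windows of Alox5 (chr6:116461179-116461428, minus strand), the first enzyme of the leukotriene branch, and of Tbxas1 (chr6:38918736-38918985, plus strand), which shares its substrate with Ptges, are shown in the same way for contrast.
Alox5: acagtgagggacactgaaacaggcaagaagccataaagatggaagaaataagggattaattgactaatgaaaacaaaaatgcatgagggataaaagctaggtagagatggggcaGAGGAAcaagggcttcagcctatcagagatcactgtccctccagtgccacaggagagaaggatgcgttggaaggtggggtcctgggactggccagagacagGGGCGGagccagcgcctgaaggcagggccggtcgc
Tbxas1: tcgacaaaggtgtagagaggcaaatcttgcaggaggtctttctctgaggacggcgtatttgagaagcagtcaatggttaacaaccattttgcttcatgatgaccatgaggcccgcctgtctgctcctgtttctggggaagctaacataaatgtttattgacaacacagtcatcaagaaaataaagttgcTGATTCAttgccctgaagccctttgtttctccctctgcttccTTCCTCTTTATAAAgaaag

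Alox5 had a GC box from -35 to -30 and a PU.1 match from -136 to -131. Tbxas1 had an AP-1 match from -61 to -55, a PU.1 match on the minus strand from -19 to -14 and, directly after it, TATA matches on both strands that overlap each other, from -13 to -8 and from -11 to -6. Neither window held a C/EBP match. Of the 2 windows of Pla2g4a, which also rose, 1 held a C/EBP match and 1 did not. The windows were chosen with the expression values known, so this is a description of single sequences. Bases G and C made up 61.6% of the Ptgs2 window, 59.6% of the Ptges window, 52.8% of the Alox5 window and 43.6% of the Tbxas1 window, with a median of 52.4% over all windows.

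Markers of other cells were set beside these LPS differences. Of 12 macrophage markers 5 fell at 4 h and 1 rose, where 7.61% and 7.76% of all genes did. Among those that fell were the complement gene C1qc (-1.05), the mannose receptor gene Mrc1 (-1.46) and the phagocytic receptor gene Mertk (-1.64). The 1 that rose was Cd14 (1.53), the LPS co-receptor gene. The summed level of the 12 markers on the linear scale was 18175 to 18873 in Akirin2 KO and 18736 to 20643 in wild-type. Mast cells and eosinophils are also known to express Ltc4s and Alox5. Summed mast cell markers ran from 75.2 to 84.0 in Akirin2 KO and from 74.2 to 82.2 in wild-type, with 2 to 5 of 8 at or above the array median on any array. Summed eosinophil markers ran from 44.4 to 46.8 in Akirin2 KO and from 43.9 to 46.0 in wild-type, with 1 or 2 of 5 at or above it. Neutrophils are known to express Alox5 and Alox5ap. Their summed markers ran from 378 to 596 in Akirin2 KO and from 367 to 677 in wild-type, with 4 or 5 of 8 at or above it. Of 5 neutrophil markers above the floor 1 was called at 4 h over both genotypes, S100a8 (1.26, adjusted p = 0.00116), while S100a9 stood at -0.46 (adjusted p = 0.0941). Platelets are known to express Tbxas1, and their summed markers ran from 732 to 838 in Akirin2 KO and from 775 to 865 in wild-type. On any array 2 to 5 of these 6 markers were at or above the array median. The brightest of them was Pf4, with log2 values of 9.43 to 9.63 in Akirin2 KO and 9.49 to 9.67 in wild-type. Pf4 made up most of the sum. Over the 6 arrays Gp1bb, Gp5 and Itga2b read 2.98 to 3.68, near the array median of 3.18 to 3.23, and Ppbp read 3.30 to 4.06. The part of other cells in the LPS differences was not tested.

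The loss of Akirin2 gave no call among these genes. The genotype difference over the 3 times was tested in the same limma fit, where the times stand in for replicates, so a small p-value there means a difference that held over time, not one beyond the spread between animals. By this test 0 of the 8 genes were called between genotypes, where 1.95% of all genes were, and 2 had an unadjusted p under 0.05, as did 15.4% of all genes. By size alone, 1 gene was at least 2-fold apart at 0 h, where 1.93% of all genes were, 0 at 2 h, where 0.949% were, and 1 at 4 h, where 1.45% were. Between single arrays there is no error and no test.

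**Figure D3:**
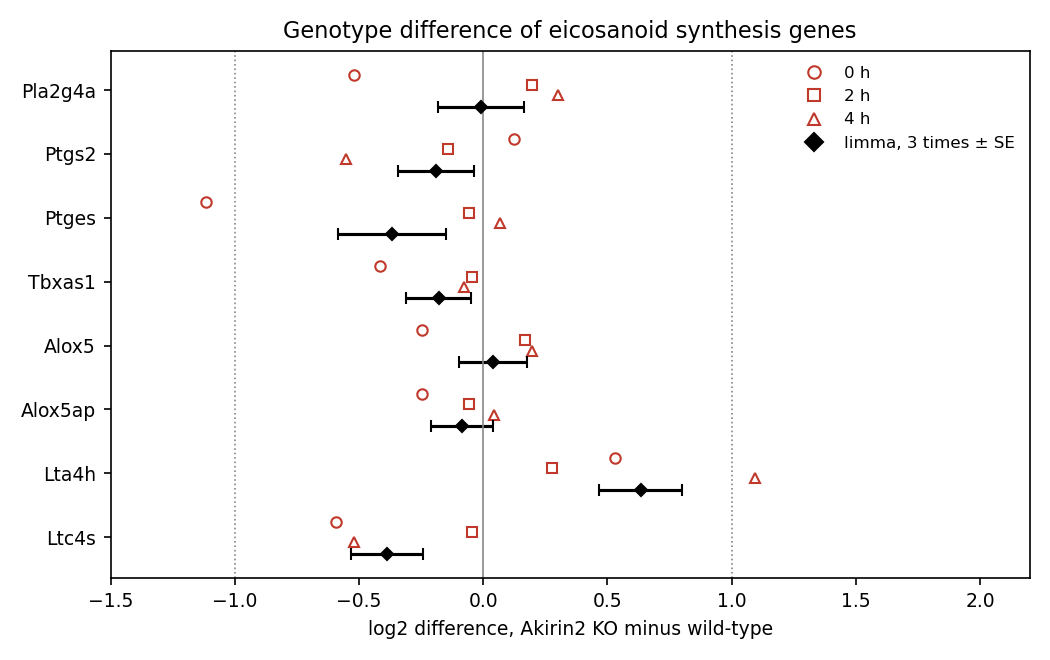
The log2 difference of Akirin2 KO minus wild-type (horizontal axis) for the 8 genes at 0 h (circles), 2 h (squares) and 4 h (triangles), 1 pair of arrays each, with the limma estimate over the 3 times and its SE in black. Dotted lines mark 2-fold; Ptges at 0 h and Lta4h at 4 h lie beyond them.

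The induced cyclooxygenase gene was close in both genotypes until 4 h. Ptgs2 in Akirin2 KO minus wild-type was 0.13, -0.14 and -0.55 at 0, 2 and 4 h, with an estimate of -0.19 (SE 0.15, adjusted p = 0.609). Pla2g4a differed by -0.52, 0.20 and 0.30 at these times, so the direction turned between 0 and 2 h, and its estimate was -0.0080 (SE 0.17, adjusted p = 0.988). Ltc4s differed by -0.59, -0.043 and -0.52, the same direction at each time, with an estimate of -0.39 (SE 0.14, adjusted p = 0.253). Tbxas1 (-0.18), Alox5ap (-0.087) and Alox5 (0.039) had estimates of smaller size, with SE between 0.12 and 0.14. A test that is not passed does not show that the genotypes had equal levels, and with 1 array per condition small differences cannot be seen.

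The 2-fold difference of Ptges at 0 h was seen on a single probe set. The probe set with the highest mean differed by -1.12 at 0 h, -0.056 at 2 h and 0.069 at 4 h in Akirin2 KO minus wild-type. The other probe sets of Ptges read 3.73 and 3.14 in unstimulated Akirin2 KO cells, against 3.73 and 2.97 in unstimulated wild-type cells. Their differences at 0 h were 1.9e-06 and 0.17, so they did not show the gap. At 0 h the first probe set read 3.11 in Akirin2 KO, below the array median, which ran from 3.18 to 3.23. With arrays centred the gap was -0.96. The median difference of all genes at 0 h was -0.074 as deposited and 0.087 with arrays centred.

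Lta4h was higher in Akirin2 KO on its brightest probe set at all 3 times, by 0.53, 0.27 and 1.10, with the KO arrays at 4.29 to 4.60 and the wild-type arrays at 3.20 to 4.08. Each range holds 3 LPS times with 1 array each, and the share of all genes with ranges apart was not counted. The wild-type 4 h value of 3.20 lay near the array median, which ran from 3.18 to 3.23. The estimate was 0.63 (SE 0.17, adjusted p = 0.112, unadjusted p = 0.00491), and 15.4% of all genes had an unadjusted p under 0.05. The other 2 Lta4h probe sets read between 2.68 and 3.03 in Akirin2 KO and between 2.65 and 3.19 in wild-type, below the array median except for 1 of them on 1 array. Their estimates were -0.27 and -0.028, of opposite sign to that of the first.

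**Figure D4:**
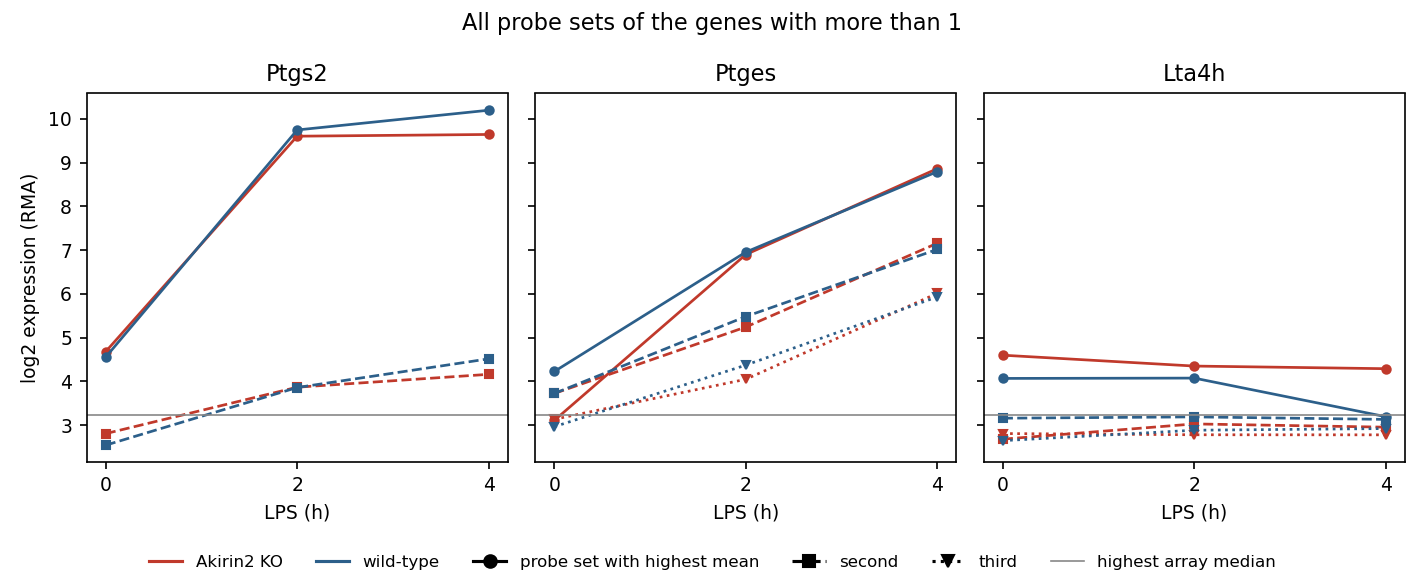
The log2 expression value (vertical axis) against hours of LPS for each probe set of Ptgs2, Ptges and Lta4h, Akirin2 KO in red and wild-type in blue, with line style for the rank of the probe set by mean and a grey line at the highest array median. All probe sets of Ptgs2 and Ptges climb, while the 2-fold gaps between genotypes, in Ptges at 0 h and in Lta4h at 4 h, are on the brightest probe set.

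Whether the LPS response itself differed between genotypes was tested by adding the interaction of genotype with stimulation (2 and 4 h against 0 h) to the limma fit. Of the 8 genes 0 were called, where 0.0294% of all genes were, and 2 had an unadjusted p under 0.05, as did 12.8% of all genes. The Ptges difference from 0 h exceeded that of wild-type by 1.06 (2 h) and 1.19 (4 h) in Akirin2 KO, giving an interaction of 1.12 (SE 0.25, adjusted p = 0.107). On the other Ptges probe sets the interaction was -0.050 and -0.29, the opposite direction. That of Pla2g4a was 0.77 (SE 0.25, adjusted p = 0.226), and that of Ptgs2 was -0.47 (SE 0.27, adjusted p = 0.488). In the values as deposited the interaction was above 0 for 7 of the 8 genes with a median of 0.33, and for 62.8% of all genes with a median of 0.10. With arrays centred it was above 0 for 6 of the 8 with a median of 0.12, and for 35.9% of all genes with a median of -0.11.

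Other genes of the pathway were taken from 6 lists that held 72 genes, of which 44 reached the expression floor. At 2 h of LPS 5 of the 44 rose and 2 fell, where 3.96% and 2.89% of all genes did. At 4 h 8 rose and 8 fell, where 7.76% and 7.61% of all genes did. The largest rise was that of Fpr2, which encodes a formyl peptide receptor that also binds the lipoxygenase product lipoxin. It read 7.002, 9.46 and 10.50 at 0, 2 and 4 h in Akirin2 KO, and 7.84, 10.54 and 11.49 in wild-type. Fpr2 was higher with LPS in both genotypes, with an estimate of 3.57 at 4 h (SE 0.15, adjusted p = 4.61e-06).

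Among 8 genes of prostanoid transport and breakdown, 3 rose and 4 fell at 4 h, where 7.76% and 7.61% of all genes did. The efflux pump gene Abcc1, whose product exports leukotriene C, rose by 2.39 (SE 0.15, adjusted p = 2.95e-05). The reductase gene Ptgr1 rose by 1.38 and the pump gene Abcc4, whose product exports prostaglandin E, by 0.64. Hpgd, the dehydrogenase that inactivates prostaglandin E, read 4.95, 4.10 and 3.50 at 0, 2 and 4 h in Akirin2 KO, against 5.93, 4.66 and 3.82 in wild-type. Its estimate at 4 h was -1.78 (SE 0.19, adjusted p = 0.000418). The carbonyl reductase genes Cbr2 (-1.41) and Cbr1 (-0.59) and the reductase gene Ptgr2 (-0.88) also fell.

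Receptor genes moved both ways. Of 5 prostanoid receptor genes above the floor, counting the nuclear receptor Pparg, the prostacyclin receptor gene Ptgir rose by 1.12 at 4 h (SE 0.16, adjusted p = 0.00209). The prostaglandin E receptor genes Ptger4 and Ptger2 differed in course, with Ptger4 up by 0.74 at 2 h (SE 0.15, adjusted p = 0.0211) and at 0.38 at 4 h (adjusted p = 0.128), and Ptger2 down by -0.57 at 4 h (adjusted p = 0.0376). Pparg fell by 2.02 at 4 h (SE 0.18, adjusted p = 0.000157). Of 7 receptor genes for leukotrienes and other lipid mediators 3 rose at 4 h and 0 fell, where 7.76% and 7.61% of all genes did. Those that rose were Fpr2, the chemerin receptor gene Cmklr1 (1.96) and Gpr18 (0.70). Among the remaining lists Pla2g7, which encodes a secreted phospholipase that degrades platelet-activating factor, rose by 1.16, while the prostaglandin D synthase gene Hpgds (-0.73) and the 12/15-lipoxygenase gene Alox15 (-0.86) fell at 4 h.

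**Figure D5:**
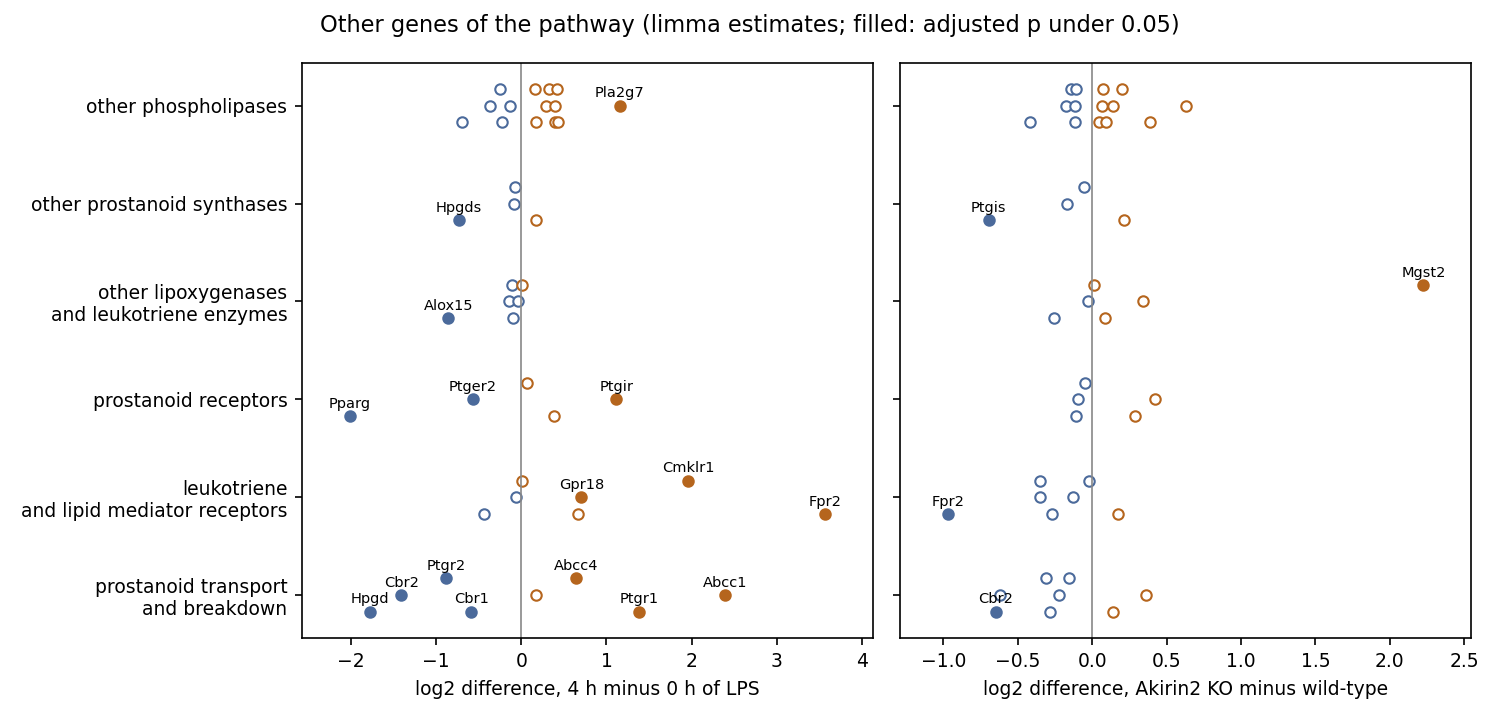
The limma log2 difference of each of the 44 other pathway genes above the floor, by list, for 4 h against 0 h of LPS (left) and for Akirin2 KO against wild-type (right), with filled, named points for an adjusted p under 0.05. At 4 h 8 genes lie to the right and 8 to the left, and between genotypes Mgst2 stands at 2.23 with Ptgis, Fpr2 and Cbr2 below 0.

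Between genotypes 1 of the 44 pathway genes rose in Akirin2 KO and 3 fell, where 1.95% of all genes were called in either direction. Mgst2 encodes a microsomal glutathione transferase that, in human cells, can make leukotriene C as the Ltc4s product does. It read 6.08, 6.03 and 6.01 at 0, 2 and 4 h in Akirin2 KO, against 3.70, 3.96 and 3.78 in wild-type. The KO arrays lay above all wild-type arrays at every time, and its LPS estimate at 4 h was 0.0041 (adjusted p = 0.989). The share of all genes with arrays apart in this way was not counted. The genotype estimate was 2.23 (SE 0.13, adjusted p = 0.000182), a rise, beside an estimate of -0.39 for Ltc4s that did not pass.

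Fpr2 fell by 0.97 in Akirin2 KO (SE 0.12, adjusted p = 0.00783) and was lower at each time. The prostacyclin synthase gene Ptgis fell by 0.70 (SE 0.12, adjusted p = 0.0314), with 5.44, 5.71 and 5.43 in Akirin2 KO at 0, 2 and 4 h against 6.25, 6.31 and 6.11 in wild-type. Cbr2 fell by 0.65 (SE 0.13, adjusted p = 0.0428). The calls of Ptgis and Cbr2 were lost with arrays centred (adjusted p = 0.0549 and 0.0634) and without the 2 h arrays (0.0899 and 0.197), and that of Ptgis also without the 4 h arrays (0.0501). Cbr2 also missed with quantile normalization again (0.0503).

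Some markers of other cells also differed between genotypes, where 1.95% of all genes were called in either direction. The summed level of 10 mesothelial and fibroblast markers ran from 459 to 541 in Akirin2 KO and from 737 to 797 in wild-type, and 1 of the 9 above the floor, Col1a2, fell (-0.83, adjusted p = 0.0372). The number at or above the array median was 5 to 7 on KO arrays and 5 to 9 on wild-type arrays. The genotype estimate was below 0 for 8 of the 9 markers above the floor, with a median of -0.47. Over all 13587 genes it was below 0 for 7102, with a median of -0.011. Of 12 macrophage markers 3 were called between genotypes, C1qa (-1.08), Fcgr1 (-0.89) and C1qc (-0.71), all lower in Akirin2 KO. Of 8 resident peritoneal macrophage markers above the floor Cxcl13 fell (-1.27, adjusted p = 0.00783). Of 4 T and NK cell markers above the floor Cd28 rose (1.19, adjusted p = 0.0203). The others, Cd3e (-0.020), Cd2 (-0.049) and Ncr1 (-0.016), did not pass. The 3′ minus 5′ difference of the Actb control probe sets was 4.64, 4.50 and 4.36 in Akirin2 KO, against 4.22, 4.16 and 4.09 in wild-type. That of the Gapdh control probe sets was 4.34, 4.52 and 4.44 in Akirin2 KO, against 4.33, 4.33 and 4.42 in wild-type. The Gapdh ranges thus overlap, while the Actb ranges do not, with Akirin2 KO higher at every time. The part of these in the genotype differences was not tested.

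The genes whose course over the 6 arrays was most like that of a member were found by Pearson correlation among genes above the floor, as a description with no test, since the arrays share the LPS times. For Ptgs2 they were Naa15 (r = 0.9998), Ralgds (0.997) and the chemokine gene Cxcl2 (0.997). For Ptges they were Vcl (0.996), Rassf4 (0.995) and Foxp4 (0.994), and for Alox5 Sdk2 (0.995), Ube2b (0.995) and Plxdc2 (0.994). A correlation takes no account of size: Naa15 read 6.76, 7.30 and 7.32 at 0, 2 and 4 h in Akirin2 KO and 6.75, 7.33 and 7.37 in wild-type, a far smaller span than that of Ptgs2. Among the 8 members, Tbxas1 correlated with Alox5ap at 0.989 and with Ltc4s at 0.982, and Pla2g4a with Ptges at 0.964.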

How the data were processed

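The deposited log2 expression values per probe set were made by the authors with RMA, per the submitters' processing notes; its version is not given in the sources used here. RMA normalizes arrays by quantiles, so a shift shared by most genes would be removed. Of 45101 probe sets, 34958 had 1 gene symbol in the platform annotation, 932 several and 9211 were unnamed here. Per gene the probe set with the highest mean was kept, and genes below the array median (the 50th percentile) on every array were left out.

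Tests used limma 3.58.1 in R 4.3.3 (lmFit, eBayes, Benjamini-Hochberg at 0.05 over all 13587 genes). Residual degrees of freedom were 2 in the additive fit (prior 6.35) and 1 in the interaction fit (prior 11.5). Both were run on data simulated with independent noise, which hold no spread between animals and so cannot show how the tests deal with it. Differences between single arrays were counted at 2-fold. Named genes are the members, Akirin2, pathway genes called between genotypes or by LPS with a log2 size of 1 or more, and the 3 most correlated genes for Ptgs2, Ptges and Alox5. Pathway genes with smaller LPS calls and the named markers were chosen after their values were seen. The members and lists were chosen with earlier results of these data known. Arrays give no read depth; their number limits the precision. Promoter windows came from RefSeq (GRCm38.p6) for 7 of the 8 measured genes.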

Additional observations from a re-analysis of the deposited data

How the results depend on the processing

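In the reported fit 12 results of single genes had passed (LPS at 2 h, at 4 h and between them). Over the alternatives run, 99 of their 100 values recomputed at the same threshold kept direction and call. The exception was Ltc4s between 2 and 4 h, at -0.94 with arrays centred (adjusted p = 0.0580), which left 1 gene called lower there. The floors, the eBayes options and leaving out a time left these LPS estimates unchanged, so direction could not turn there. The same holds for averaging probe sets where a gene had 1 probe set, and for removing probe sets where the one used was kept. Values lost with removed probe sets are not among the 100. Leaving out probe sets whose suffix marks several transcripts or cross-hybridisation removed Pla2g4a and Ltc4s, so that 1 gene was called higher and 1 lower between 2 and 4 h; it gave Lta4h -0.27 between genotypes, 0.19 at 2 h and 0.12 at 4 h, and 0 genes 2-fold apart at 4 h. These are also the values of the second Lta4h probe set, and those of the third were -0.028, 0.11 and 0.12, with 0.018 between 2 and 4 h and an interaction of -0.29; these swaps of probe sets were chosen after seeing the data. With probe sets averaged, 0 genes were 2-fold apart at 0 h and 0 at 4 h, and Lta4h stood at 0.058 at 2 h. Centring arrays gave 0 and 0 as well, 2 pathway genes called between genotypes, Pla2g4a at 0.010 between genotypes and Lta4h at -0.059 for the interaction. The Ptges interaction was -0.050 and -0.29 on its other probe sets. Some genotype estimates turned when a time was left out: without the 0 h arrays Pla2g4a was 0.25 and Ptges 0.0063 (against -0.37 with them), and Alox5 was -0.026 without the 2 h arrays, where 2 pathway genes were called, and -0.039 without the 4 h arrays. With eBayes set to trend and robust 1 gene was called between genotypes (Lta4h, adjusted p = 0.0484), 1 for the interaction (Ptges, adjusted p = 0.00112), 4 lower between 2 and 4 h, and 10 pathway genes between 2 and 4 h, as also without the 0 h arrays, against 5 in the reported fit. At an adjusted p of 0.1, 5 genes were called lower at 4 h. Size rules of 1.5-fold and 3-fold gave 2 and 0 genes at 0 h, and 3-fold gave 0 at 4 h. The causes were not tested, beyond probe sets or arrays being absent. The reported fit already sets the genotypes against each other within each time. Arrays have no depth; values near the array median, as for Lta4h, limit what could be seen.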
